A study of Mus musculus with 10 samples.

Results

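The transforming growth factor beta (TGF-beta) and bone morphogenetic protein (BMP) pathway genes were examined in spleens of DUSP6 KO and wild-type (WT) mice with arthritis. The family was chosen with earlier results of these data known. Its genes were then taken by name, as every protein-coding gene of the table with a symbol of the family. Such a symbol begins with Bmp, Gdf, Tgfb, Inhb, Acvr or Smad, followed by the number or letter of a family member. This rule found 52 of the 54532 genes listed. It takes in the ligands, their receptors and the Smad transducers, and also 4 genes that are named alike but have another role (Bmp1, Bmp2k, Tgfb1i1 and Tgfbrap1).

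TGF-beta, activin, BMP and GDF ligands are secreted dimers that bring type I and type II receptor kinases together on the cell surface. The type I receptor then phosphorylates receptor-regulated Smads, which join Smad4 and enter the nucleus, while Smad6 and Smad7 hold the signal back. In spleen, TGF-beta is best known for restraining lymphocytes and for the differentiation of regulatory T cells, and BMP signals are known in stroma, in stress erythropoiesis and in iron handling. DUSP6 is a phosphatase that inactivates the MAP kinase ERK, and ERK can phosphorylate the linker region of Smads.

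The WT mice were C57BL/6J, and the DUSP6 KO mice carried the germline Dusp6tm1Jmol allele, which removes the phosphatase from every cell type and not from one lineage. The lines were purchased, and the deletion and any other difference between them cannot be told apart. Mice aged 8 to 12 weeks were used. All 10 mice, controls included, received 100 µL of pooled serum from arthritic KRN x NOD F1 mice by intraperitoneal injection on days 0 and 2 (KRN serum-induced arthritis, KSIA), and spleens were taken on day 9. There was 1 library per spleen, from 5 DUSP6 KO mice (26, 21, 73, 01 and 03) and 5 WT mice (65, 67, 73, 77 and 83), no spleens were pooled, and values are listed below in this order of mice. No untreated spleens were analysed here, so that the values describe genotype within arthritis.

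Values are FPKM, the fragments assigned to a gene, divided by its length and by the depth of the library, so that levels can be compared between genes per length. Libraries held 14990474 to 19822673 assigned reads in the DUSP6 KO group and 15611652 to 18422147 in the WT group. Dusp6 was at 0.308 to 0.624 FPKM in the KO spleens and at 16.6 to 24.0 FPKM in the WT spleens, as their labels say. All libraries were from males, with Xist at 0.0206 FPKM or less and Ddx3y at 14.4 to 18.6 FPKM. Summed markers of B cells reached 350 to 713 FPKM in KO and 403 to 903 in WT spleens, and those of red pulp macrophages 645 to 902 and 681 to 823. Library WT 67 stood apart with 12642 FPKM over 6 exocrine pancreas genes, followed by WT 65 with 162 FPKM, against 9.52 to 26.2 FPKM in the other 8 libraries. In bulk tissue, fewer cells of a type and less RNA per cell cannot be told apart.

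Of the 52 genes, 41 had a mean of at least 0.1 FPKM over the 10 libraries and were tested, and 11 were below this minimum. The highest mean over all spleens was that of Tgfb1, at 57.6 FPKM, and the lowest of those tested that of Bmp8a, at 0.156 FPKM. Groups were compared with limma on log2(FPKM + 0.1) over all 21296 genes that passed the minimum. None of the 41 genes passed a Benjamini-Hochberg adjusted p of 0.05 in limma, where 0.0704% of all genes did, and the lowest adjusted p among them was 0.659. At an unadjusted limma p under 0.05, 4 of the 41 were higher in DUSP6 KO spleens (9.76%; Gdf6, Bmp2, Bmp6 and Bmp1), against 2.62% of all genes, and 0 were lower, against 3.03% of all genes. Either way, 5.66% of all genes were under this nominal threshold.

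The median log2 fold change of DUSP6 KO over WT was 0.04 for the 41 genes and -0.0046 for all genes tested. It was positive for 25 and negative for 16 of them (61% positive, against 49% of all genes). The 95% interval of the difference lay within a log2 change of 1 in either direction for 32 of the 41. The limma p-values set the difference between groups against the spread between mice of a group, estimated with the help of all genes tested.

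**Figure D1:**
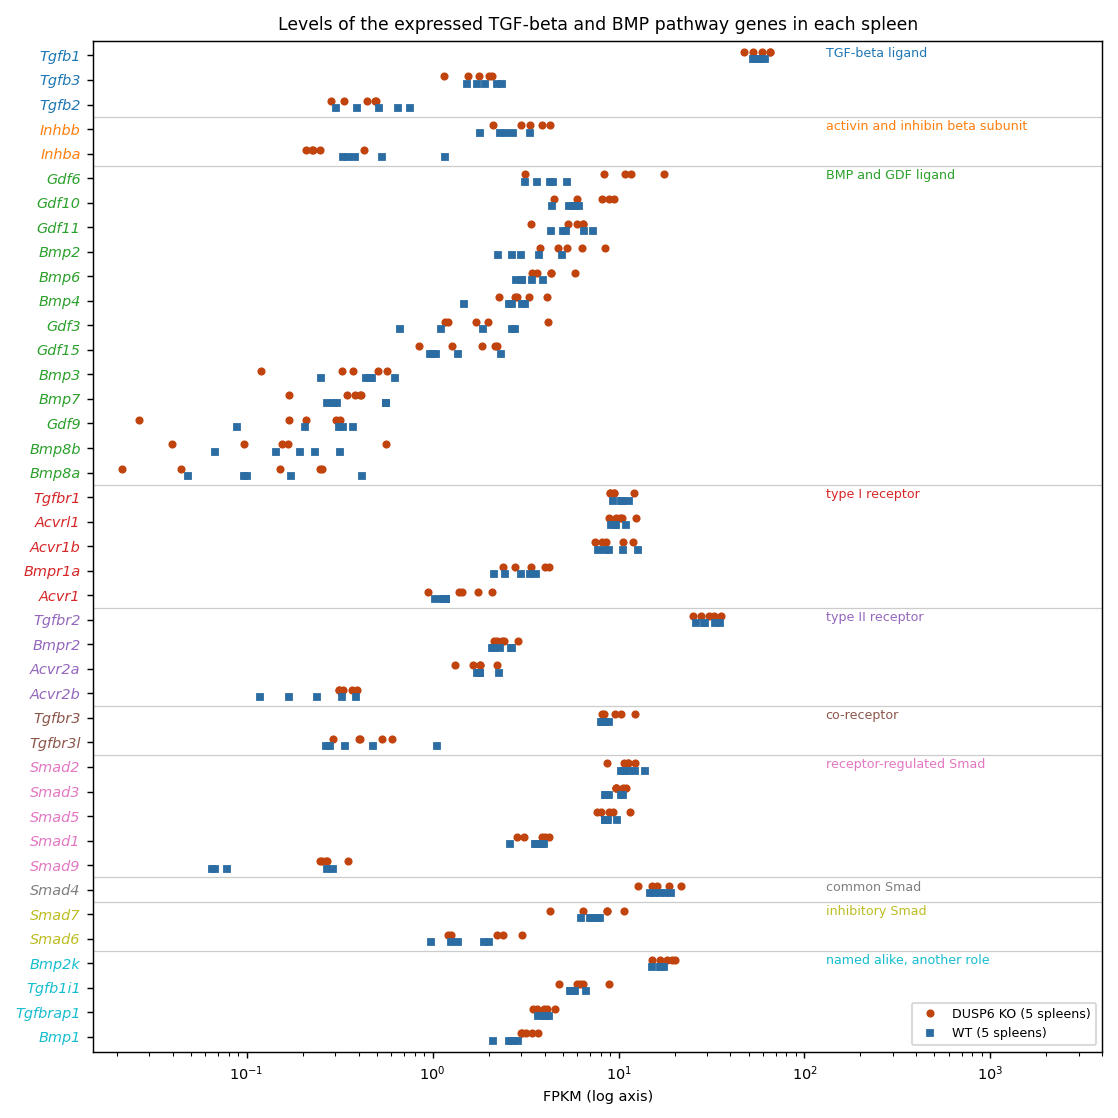
FPKM (log axis) of the 41 tested genes in each spleen, grouped by role, with DUSP6 KO spleens as red circles and WT spleens as blue squares. Tgfb1 and Tgfbr2 lie highest, the groups overlap in every row but that of Bmp1, and the KO circles of Gdf6 spread from 3.13 to 17.6 FPKM.

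The BMP and GDF ligands were the class with the most genes, 20, of which 13 were tested. At an unadjusted p under 0.05, 3 of the 13 were higher in DUSP6 KO spleens (23.1%, against 2.62% of all genes) and 0 were lower. The median log2 fold change of the 13 was 0.18. The other 10 tested ligands lay on both sides of zero.

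Gdf6 (ENSMUSG00000051279, chromosome 4, 9844372 to 9862345) encodes a BMP-like ligand known for patterning joints, skeleton and eye. It stood at 3.13, 17.6, 8.31, 11.7 and 10.9 FPKM in the DUSP6 KO spleens. In the WT spleens it stood at 4.29, 3.63, 3.15, 4.46 and 5.31 FPKM. Hence 4 of 5 KO spleens were above every WT spleen, while KO 26 was below all of them. The means were 10.3 ± 5.27 and 4.17 ± 0.824 FPKM (SD, n = 5 each), a ratio of 2.48. This corresponded to a log2 fold change of 1.11, with standard error 0.38 and an interval of 0.27 to 1.95 (adjusted p = 0.731 by limma). The two-sided exact permutation test of the 5 against 5 values gave p = 0.0476.

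The Gdf6 difference varied with single mice. Without KO 26, its log2 fold change was 1.49 and its limma adjusted p was 0.0778, and without KO 21, the highest spleen, the log2 fold change was 0.87. It was counted from 206 to 1210 reads per KO spleen and 192 to 336 per WT spleen, so that reads were not scarce in any library. The coefficient of variation of Gdf6 was 51.1% among the KO spleens and 19.8% among the WT spleens.

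Bmp2 (ENSMUSG00000027358, chromosome 2, 133552159 to 133562885), a ligand known for bone formation and for hepcidin induction in liver, stood at 5.26, 8.42, 3.76, 4.71 and 6.32 FPKM in the DUSP6 KO spleens. It stood at 2.25, 3.01, 2.66, 3.72 and 4.94 FPKM in the WT spleens. The groups overlapped, since WT 83 lay above KO 73 and KO 01, and 3 KO spleens were above all WT spleens. The means were 5.70 ± 1.78 and 3.32 ± 1.06 FPKM (SD, n = 5 each). On the log2 scale Bmp2 differed by 0.76, with standard error 0.25 (limma adjusted p = 0.659, exact permutation p = 0.0317, two-sided).

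Bmp6 (ENSMUSG00000039004, chromosome 13, 38345107 to 38500302) is the main endothelial BMP of iron sensing in liver. Its values were 4.36, 5.86, 3.41, 3.65 and 4.31 FPKM in the DUSP6 KO spleens and 2.82, 3.02, 3.03, 3.92 and 3.41 FPKM in the WT spleens. The lowest KO spleens, 73 and 01, lay among the highest WT spleens. The means were 4.32 ± 0.954 and 3.24 ± 0.434 FPKM (SD, n = 5 each), which differed by 0.39 on the log2 scale with standard error 0.15 (limma adjusted p = 0.791, exact permutation p = 0.0317, two-sided). An exon of Txndc5 overlaps Bmp6 on the other strand, and whether the libraries kept strand is not given in the sources used here. Reads that fall on the shared stretch may therefore not be told apart between the genes of the pair.

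**Figure D2:**
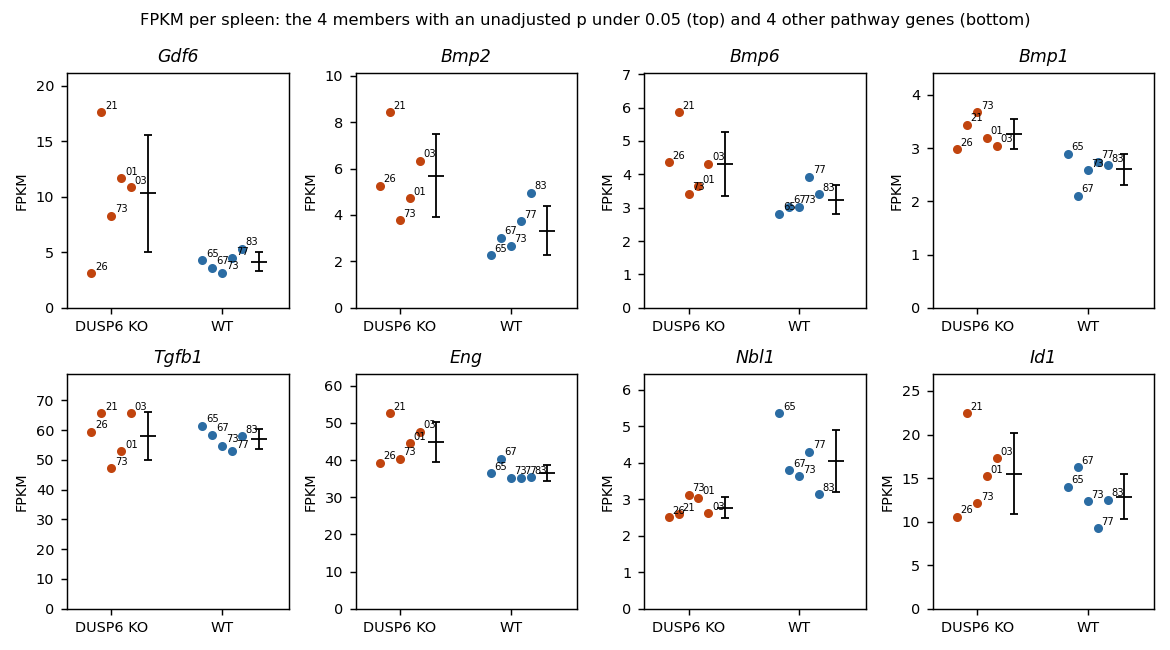
FPKM of 8 genes in each spleen, with mouse numbers beside the points and the mean ± SD of 5 spleens in black. In the top row KO 26 is below every WT spleen for Gdf6, and Bmp1 alone has no overlap between groups; in the bottom row Nbl1 has no overlap and Tgfb1 lies between 47.1 and 65.6 FPKM in both groups.

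The other ligands of the class were near or below these levels. Gdf10, also known as BMP3B and tied to cartilage and bone, averaged 7.39 ± 2.08 FPKM in KO spleens and 5.47 ± 0.665 FPKM in WT spleens (log2 fold change 0.39, limma adjusted p = 0.936). Its 5 KO values were 5.96, 9.48, 4.52, 8.88 and 8.11 FPKM, of which 3 were above all WT spleens. Gdf11, a close relative of myostatin, had means of 5.51 and 5.67 FPKM and a log2 fold change of -0.05. Gdf11 is on the chromosome of Dusp6, 29.6 Mb away from it.

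By mean FPKM, the ligands of this class ran Gdf11, Gdf10, Gdf6, Bmp2 and Bmp6 from the top in WT spleens. In DUSP6 KO spleens the order was Gdf6, Gdf10, Bmp2, Gdf11 and Bmp6. Neighbors in both orders had overlapping values between mice. Bmp4, a ligand used in stress erythropoiesis of the spleen, followed with 3.06 ± 0.686 FPKM in KO spleens and 2.58 ± 0.663 FPKM in WT spleens (log2 fold change 0.25, interval -0.23 to 0.74).

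Gdf3, a ligand of macrophages and early embryo, had a KO range of 1.17 to 4.20 FPKM and a WT range of 0.670 to 2.78 FPKM. The highest value was that of KO 73. Gdf15, a stress-induced cytokine that signals through GFRAL, ran from 0.847 to 2.21 FPKM in KO spleens and from 0.964 to 2.32 FPKM in WT spleens. Gfral, its receptor, was hit by 1 read in 1 of the 10 libraries. Bmp3, Bmp7, Gdf9, Bmp8b and Bmp8a all had means under 0.5 FPKM in both groups, log2 fold changes between -0.29 and -0.08, and intervals of which the widest was -1.13 to 0.88 (Bmp8a).

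The 7 BMP and GDF ligands under the minimum were Bmp5, Bmp10, Bmp15, Gdf1, Gdf2, Gdf5 and Gdf7. None of these had more than 10 reads in any library. Gdf1 had 0 reads in all 10 libraries, which allows up to 3 reads in each, but it shares exon sequence on the same strand with Cers1, so that reads falling on both genes may not have been assigned to it. Gdf2 (BMP9), a circulating ligand made by liver, had 10 reads in WT 77 and 1 read in KO 03.

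The TGF-beta ligands showed no difference at the nominal threshold. Tgfb1, the form made by most immune cells and platelets, stood at 59.4, 65.6, 47.1, 52.8 and 65.6 FPKM in the DUSP6 KO spleens and at 61.4, 58.3, 54.7, 52.9 and 57.8 FPKM in the WT spleens. Its KO values spread on both sides of the WT values. The means were 58.1 ± 8.10 and 57.0 ± 3.32 FPKM (SD, n = 5 each), and the log2 difference of 0.02 had an interval of -0.20 to 0.24.

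Tgfb2 and Tgfb3 are the forms better known from stroma and epithelium. Tgfb3 had means of 1.72 ± 0.381 and 1.95 ± 0.341 FPKM (log2 fold change -0.18, interval -0.59 to 0.22). Tgfb2 had means of 0.409 ± 0.0959 and 0.522 ± 0.184 FPKM (log2 fold change -0.26, interval -0.84 to 0.32). Tgfb1 was thus by far the most abundant form per length in both genotypes.

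Of the 4 activin and inhibin beta subunits, 2 were tested. Inhba, which encodes the subunit of activin A, an inflammatory cytokine of macrophages and neutrophils, is named here because it had the most negative log2 fold change of the 41 genes, and was chosen after its values were seen. It stood at 0.210, 0.25, 0.427, 0.224 and 0.226 FPKM in the DUSP6 KO spleens and at 0.329, 0.352, 0.535, 1.17 and 0.384 FPKM in the WT spleens. Every KO spleen but KO 73 was below every WT spleen.

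The means of Inhba were 0.267 ± 0.0905 and 0.554 ± 0.352 FPKM (SD, n = 5 each), from 24 to 40 reads per KO spleen and 36 to 124 reads per WT spleen. Its log2 fold change was -0.73, with standard error 0.33 (limma unadjusted p = 0.0505, adjusted p = 0.882; exact permutation p = 0.0317, two-sided). The spleen with the highest Inhba, WT 77, also had the highest summed neutrophil markers, 1915 FPKM over 5 genes. Among the KO spleens, KO 73 was highest in both, with 826 FPKM of neutrophil markers. Over all spleens these sums ran from 224 to 826 FPKM in KO and from 466 to 1915 FPKM in WT. Of the 5 markers, 3 were lower in KO spleens at an unadjusted limma p under 0.05, against 3.03% of all genes. The part of the neutrophil markers in the Inhba values was not tested.

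Inhbb, the subunit of activin B, went the other way in its means, at 3.32 ± 0.842 FPKM in KO spleens and 2.53 ± 0.563 FPKM in WT spleens. The groups overlapped and the interval of its log2 fold change was -0.10 to 0.82. Inhbc had 0 reads in all 10 libraries and Inhbe had 1 read in 1 KO library. Both are known from liver.

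The type I receptors were close between genotypes. Of 7 genes, 5 were tested and none had an unadjusted p under 0.05. Tgfbr1, the TGF-beta type I receptor (ALK5), averaged 9.80 ± 1.31 FPKM in KO spleens and 10.4 ± 0.747 FPKM in WT spleens. The interval of its log2 fold change was -0.31 to 0.13. Acvrl1 (ALK1), the endothelial receptor for BMP9, and Acvr1b (ALK4), the activin receptor, had log2 fold changes of 0.07 and -0.05.

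The BMP type I receptors were lower in level. Bmpr1a (ALK3) had means of 3.36 ± 0.786 and 2.92 ± 0.614 FPKM. Acvr1 (ALK2), the receptor mutated in a disease of ectopic bone, stood at 0.943, 2.09, 1.44, 1.39 and 1.75 FPKM in DUSP6 KO spleens and at 1.17, 1.12, 1.15, 1.03 and 1.18 FPKM in WT spleens. As with Gdf6, 4 KO spleens were above all WT spleens and KO 26 was below all of them. Its log2 fold change was 0.36 with an interval of -0.07 to 0.78 (limma adjusted p = 0.944). Bmpr1b and Acvr1c were under the minimum, with at most 4 and 15 reads in a library.

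The type II receptors were likewise close. Tgfbr2, which every TGF-beta signal requires, stood at 30.7, 35.4, 25.1, 27.6 and 32.5 FPKM in DUSP6 KO spleens and at 28.9, 35.1, 29.3, 26 and 33.1 FPKM in WT spleens, with full overlap. The interval of its log2 fold change was -0.26 to 0.24. Bmpr2 and Acvr2a, which bind BMPs and activins, had log2 fold changes of 0.02 and -0.10. Acvr2b was low, at 0.343 ± 0.0357 and 0.248 ± 0.110 FPKM, with a log2 fold change of 0.41 and an interval of -0.19 to 1.01.

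Tgfbr3 (betaglycan) is a co-receptor that presents TGF-beta to Tgfbr2. It averaged 9.73 ± 1.69 FPKM in KO spleens and 8.41 ± 0.330 FPKM in WT spleens. The WT spleens lay within 8.05 to 8.93 FPKM, and 3 KO spleens were above them. Its log2 fold change of 0.19 had an interval of -0.05 to 0.44. Tgfbr3l, a related gene, averaged 0.449 ± 0.122 and 0.483 ± 0.330 FPKM.

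**Figure D3:**
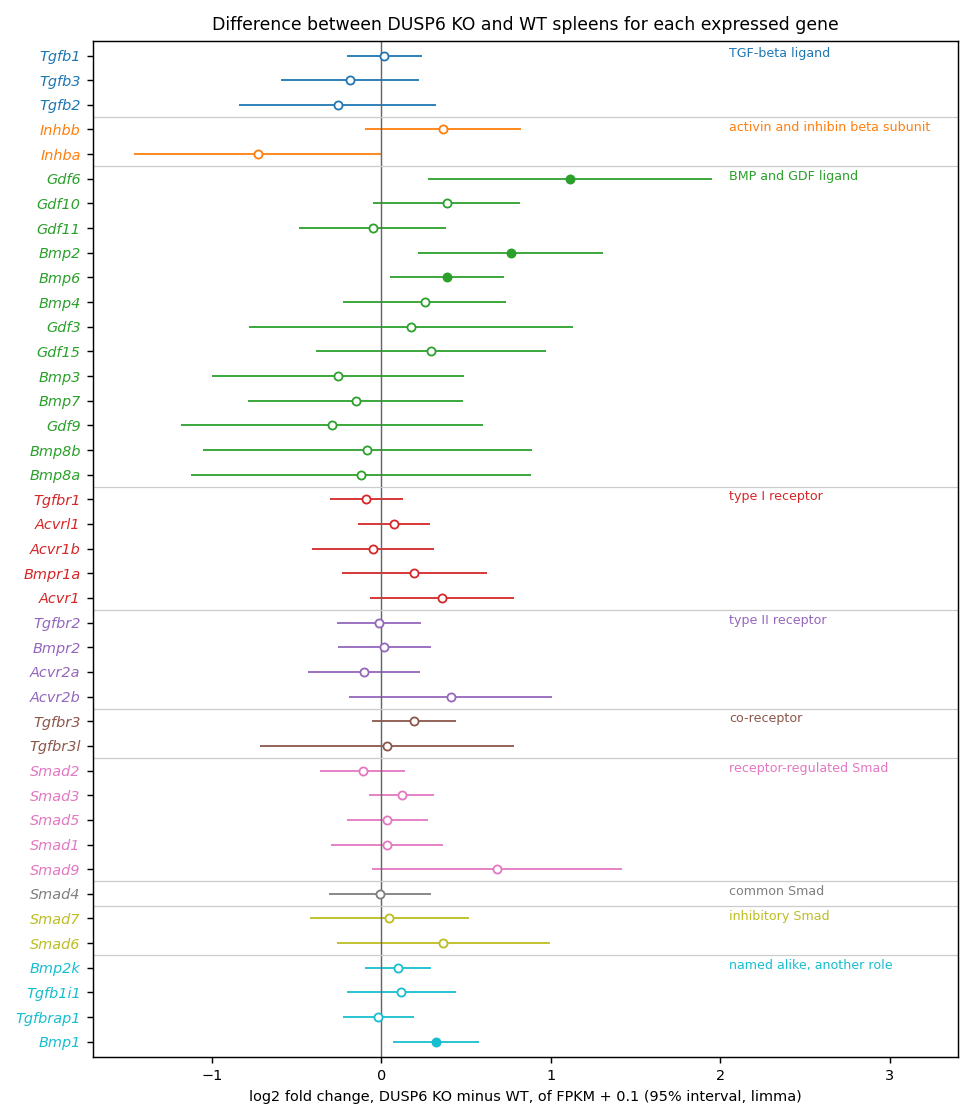
Log2 fold change of DUSP6 KO over WT with its 95% limma interval for the 41 tested genes, grouped by role; filled points have an unadjusted p under 0.05. Gdf6, Bmp2, Bmp6 and Bmp1 are the filled points, Inhba is lowest at -0.73, and the receptors and Smads with high FPKM have short intervals that include zero.

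The Smads, which carry the signal to the nucleus, gave no gene under the nominal threshold. Smad2 and Smad3 act for TGF-beta and activin. Smad2 averaged 10.8 ± 1.33 FPKM in KO spleens and 11.7 ± 1.46 FPKM in WT spleens, and Smad3 had means of 10.1 ± 0.628 and 9.34 ± 0.983 FPKM. The intervals of their log2 fold changes were -0.36 to 0.14 and -0.07 to 0.31.

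Smad1, Smad5 and Smad9 act for BMPs. Smad5 was the most abundant of these per length, at 9.12 ± 1.5 and 8.82 ± 0.547 FPKM, followed by Smad1 at 3.61 ± 0.601 and 3.52 ± 0.534 FPKM. Smad9 was far lower. It stood at 0.25, 0.268, 0.254, 0.353 and 0.270 FPKM in DUSP6 KO spleens and at 0.0654, 0.0781, 0.292, 0.0672 and 0.270 FPKM in WT spleens.

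The Smad9 values of the WT spleens thus fell apart, with 3 mice (65, 67 and 77) well under every KO mouse and 2 mice (73 and 83) at the level of the KO mice. Its reads numbered 20 to 41 in KO libraries and 6 to 27 in WT libraries. For Smad9 the log2 fold change was 0.68 with an interval of -0.06 to 1.42 (limma adjusted p = 0.922).

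Smad4, the common partner, had means of 16.9 ± 3.44 and 16.8 ± 1.75 FPKM and an interval of -0.31 to 0.29. Smad7, the inhibitory Smad that TGF-beta itself induces, had means of 7.78 ± 2.47 and 7.21 ± 0.635 FPKM. Its KO values ran from 4.29 FPKM in KO 73 to 10.7 FPKM in KO 03, wider than the WT range of 6.28 to 7.90 FPKM. Smad6, the inhibitor of BMP signals, had means of 2.02 ± 0.776 and 1.5 ± 0.438 FPKM, with a log2 fold change of 0.37 and an interval of -0.26 to 1.

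Of the genes named alike with another role, Bmp1 was the only one under the nominal threshold. Bmp1 (ENSMUSG00000022098, chromosome 14, 70474558 to 70520234) is no BMP ligand but a metalloproteinase that trims procollagens and cleaves the BMP antagonist chordin. It stood at 2.97, 3.44, 3.67, 3.19 and 3.04 FPKM in DUSP6 KO spleens and at 2.89, 2.10, 2.58, 2.74 and 2.67 FPKM in WT spleens. Every KO value was above every WT value, which held for 0.549% of all genes tested in this direction.

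The means of Bmp1 were 3.26 ± 0.290 and 2.60 ± 0.298 FPKM (SD, n = 5 each). On the log2 scale this was 0.32, with standard error 0.11 and an interval of 0.07 to 0.57 (limma adjusted p = 0.753). The two-sided exact permutation p was 0.0079, the smallest that 5 against 5 mice can give. Bmp2k, a kinase of endocytosis and erythroid maturation, had means of 17.9 ± 2.02 and 16.7 ± 0.955 FPKM. Tgfb1i1 (Hic-5) and Tgfbrap1, an adaptor protein, had log2 fold changes of 0.12 and -0.02.

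The genes did not vary evenly over the mice. KO 21 had the highest value of all 10 libraries for 17 of the 41 genes, and KO 73 had the lowest for 14. The summed FPKM of the family was lowest in KO 73, at 234, and highest in KO 21, at 329. In the WT libraries this sum ran from 244 to 274. The coefficient of variation among KO spleens was larger than that among WT spleens for 27 of the 41 genes, with medians of 22.4% and 17.5%.

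KO 21 and KO 73 also held the largest sums of some cell type markers. KO 21 had the highest sum of 8 fibroblastic stroma markers, at 124 FPKM, and KO 26 the lowest of the KO spleens, at 69.3 FPKM. These sums ran from 69.3 to 124 FPKM in DUSP6 KO and from 68.5 to 85.9 FPKM in WT spleens (two-sided exact permutation p = 0.0873), and no defining marker was at 0 in all libraries. At an unadjusted limma p under 0.05, 0 of the 8 were lower in KO spleens, against 3.03% of all genes. At the same threshold 2 of the 8 were higher, against 2.62% of all genes. These were Tcf21, a factor of splenic mesenchyme, at 27.3 ± 7.77 against 16.8 ± 2.87 FPKM (limma adjusted p = 0.472), and Pdgfrb, a receptor of perivascular and reticular cells, at 12.4 ± 3.26 against 8.12 ± 0.625 FPKM (limma adjusted p = 0.555). The matrix genes Dcn and Col3a1 were at 4.45 ± 1.64 and 12.1 ± 3.14 FPKM in KO spleens. In WT spleens they were at 6.52 ± 2.13 and 12.6 ± 3.07 FPKM. The log2 fold changes of Pdgfra, Col1a1, Col1a2 and Ccl19 were 0.14, 0.29, 0.26 and 0.04, none with an unadjusted limma p under 0.05. KO 73 had the highest erythroid sum, at 10949 FPKM over 4 genes, against 1787 to 5807 FPKM in the other KO spleens and 1728 to 5296 FPKM in the WT spleens. Endothelial sums ran from 55.6 to 80.3 FPKM in KO and from 47.5 to 76.4 FPKM in WT spleens. Of the 5 endothelial markers 2, Tek and Stab2, were higher in KO spleens at this threshold, against 2.62% of all genes.

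Only Gdf6, Bmp2, Bmp6 and Bmp1, the 4 genes with an unadjusted limma p under 0.05, were also given as a percentage of the stromal marker sum of each library. This sum includes Tcf21 and Pdgfrb, and its mean was itself larger for KO spleens (93.4 FPKM) than for WT spleens (74.7 FPKM). Division by it therefore lowers a ratio of KO over WT. Gdf6 ran from 4.51% to 14.3% in DUSP6 KO and from 4.06% to 7.45% in WT spleens, a ratio of means of 1.87. The ratio of means was 1.36 for Bmp2, 1.08 for Bmp6 and 1.04 for Bmp1, and all 4 genes had overlapping groups on this scale. Exact permutation on this scale gave p = 0.0397 for Gdf6, 0.0952 for Bmp2, 0.563 for Bmp6 and 0.738 for Bmp1. The lowest Benjamini-Hochberg adjusted p over these 4 permutation tests was 0.159. The 4 genes were picked by their difference in these same libraries, so these p-values are no independent test. The adjustment covers only the picked genes. Because the divisor holds markers that were themselves higher in KO spleens, this scale cannot separate stromal content from the level of those markers. The part of stromal content in the values was not tested. Dcn, 1 of the 8 markers, lies 1.75 Mb from Dusp6.

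**Figure D4:**
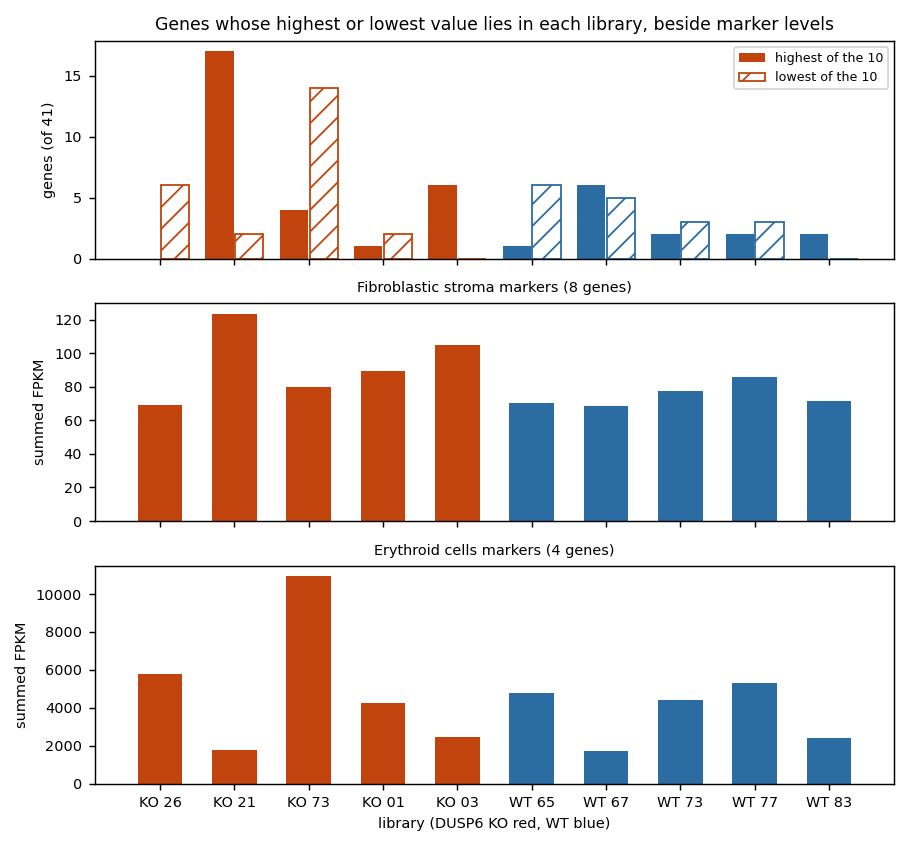
For each library, the number of the 41 genes whose highest or lowest value it holds (top), and the summed FPKM of 8 fibroblastic stroma markers (middle) and 4 erythroid markers (bottom). KO 21 holds the highest value of 17 genes and the largest stromal sum, and KO 73 holds the lowest value of 14 genes and the largest erythroid sum.

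The counts changed when the libraries with pancreas transcripts were left out, which also left fewer WT mice. Which of these changed the counts was not tested. Without WT 65 and WT 67, the genes higher at an unadjusted p under 0.05 were Bmp1 and Smad3, 2 in all. With the same libraries left out 1 gene, Inhba, was lower. The share of all genes under this threshold was not counted without WT 65 and WT 67. A shift of these genes therefore cannot be told from a shift of all genes. The log2 fold changes without them were 1.08 for Gdf6, 0.57 for Bmp2, 0.30 for Bmp6 and 0.28 for Bmp1. All of these kept the direction seen with 10 libraries.

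The other genes of the pathways, 81 in the table, were taken from lists of ligands, extracellular inhibitors, latency proteins, co-receptors, intracellular regulators and targets. Of 69 that passed the minimum, 30 had a positive and 39 a negative log2 fold change, with a median of -0.04. In limma, 0 of 69 passed the adjusted threshold (lowest adjusted p = 0.539), 3 were higher and 2 were lower at an unadjusted p under 0.05. The shares of 4.35% and 2.9% stand beside 2.62% and 3.03% of all genes.

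The extracellular inhibitors bind ligands and keep them from receptors. Of 11 tested, 1 was lower at the nominal threshold (9.09%, against 3.03% of all genes). Nbl1 (DAN; chromosome 4, 139082284 to 139092993), a BMP and GDF antagonist, stood at 2.50, 2.58, 3.12, 3.04 and 2.61 FPKM in DUSP6 KO spleens and at 5.35, 3.79, 3.62, 4.29 and 3.13 FPKM in WT spleens. All KO values were below all WT values, by a small margin between KO 73 and WT 83; 0.563% of all genes showed this. Nbl1 differed by -0.51 on the log2 scale, with standard error 0.14 (limma adjusted p = 0.539, exact permutation p = 0.0079, two-sided).

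Noggin (Nog) had means of 0.635 ± 0.424 and 0.506 ± 0.207 FPKM, with KO spleens between 0.0949 and 1.27 FPKM. The activin antagonist follistatin (Fst) was under the minimum, with 0 to 4 reads in KO and 0 to 23 reads in WT libraries. Grem1 and Chrdl1, which bind BMPs, had log2 fold changes of -0.07 and -0.48, and for Chrdl1 the interval was -1.01 to 0.05.

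Of the latency and activation genes, which hold TGF-beta in the matrix or release it, none of 13 tested was under the nominal threshold. Ltbp1 had means of 1.71 ± 0.520 and 1.87 ± 0.144 FPKM, and Lrrc32 (GARP), which presents latent TGF-beta on regulatory T cells, 4.59 ± 1.10 and 4.94 ± 0.627 FPKM. Ltbp4, a matrix binder of latent TGF-beta, ran from 17.9 to 44.6 FPKM in KO spleens, against 17.1 to 24.8 FPKM in WT spleens. Its highest value was in KO 21.

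Among the 8 co-receptors and pseudoreceptors tested, endoglin was higher at the nominal threshold (12.5%, against 2.62% of all genes). Eng, the endothelial co-receptor of Acvrl1, stood at 39.2, 52.6, 40.3, 44.5 and 47.6 FPKM in DUSP6 KO spleens and at 36.5, 40.3, 35.2, 35.2 and 35.3 FPKM in WT spleens. The groups overlapped only through WT 67, which lay above KO 26. The means were 44.8 ± 5.49 and 36.5 ± 2.17 FPKM, and these differed by 0.29 on the log2 scale, with standard error 0.09 (limma adjusted p = 0.618). Beside it, the endothelial markers Tek and Stab2 were at 4.07 ± 0.750 and 17.7 ± 3.51 FPKM in KO spleens. In WT spleens they were at 3.14 ± 0.394 and 14.3 ± 1.74 FPKM (limma adjusted p = 0.789 and 0.875). Of the other endothelial markers, Pecam1 averaged 28.8 FPKM in KO and 30.1 FPKM in WT spleens, and Emcn 0.261 and 0.388 FPKM. Cdh5 averaged 14.3 and 12.5 FPKM. The log2 fold changes of Pecam1, Emcn and Cdh5 were -0.04, -0.42 and 0.19, none with an unadjusted limma p under 0.05. The part of endothelial content in the Eng values was not tested. Bambi, a pseudoreceptor that blocks signaling, had means of 1.85 ± 0.585 and 1.56 ± 0.146 FPKM.

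The 20 intracellular regulators gave no gene under the nominal threshold. Smurf1 and Smurf2, ubiquitin ligases that degrade Smads and receptors, had means of 6.52 ± 1.62 and 6.27 ± 0.809 FPKM for Smurf1 and of 8.01 ± 1.34 and 8.34 ± 0.829 FPKM for Smurf2. For 19 of the 20, the interval of the log2 fold change lay within 1 in either direction. The exception, Foxh1, had 2 to 36 reads in a library.

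Of the 13 target genes tested, 2 were higher (15.4%, against 2.62% of all genes) at an unadjusted limma p under 0.05. At the same threshold 1 was lower (7.69%, against 3.03% of all genes). The log2 fold change was positive for 4 and negative for 9 of the 13, with a median of -0.10. Cdkn1a (p21) had means of 3.36 ± 0.429 and 2.52 ± 0.426 FPKM (log2 fold change 0.41, limma adjusted p = 0.708). Msx1, a homeobox target of BMPs, had means of 2.07 ± 0.286 and 1.55 ± 0.269 FPKM (log2 fold change 0.41, limma adjusted p = 0.789). Itgae (CD103), an integrin that TGF-beta induces on T cells and dendritic cells, stood at 1.66, 2.66, 2.56, 2.68 and 2.57 FPKM in KO spleens and at 3.04, 3, 3.71, 3.48 and 2.84 FPKM in WT spleens. Its groups did not overlap, which held for 0.563% of all genes tested in this direction. Its log2 fold change was -0.40 (limma adjusted p = 0.776).

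The Id genes, the best known immediate BMP targets, had differences of both signs. Id1 stood at 10.5, 22.4, 12.1, 15.2 and 17.3 FPKM in DUSP6 KO spleens and at 14.0, 16.3, 12.3, 9.23 and 12.5 FPKM in WT spleens, with KO 21 highest. On the log2 scale the groups differed by 0.24 for Id1, -0.22 for Id2, -0.11 for Id3 and -0.10 for Id4, and none had an unadjusted p under 0.05.

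**Figure D5:**
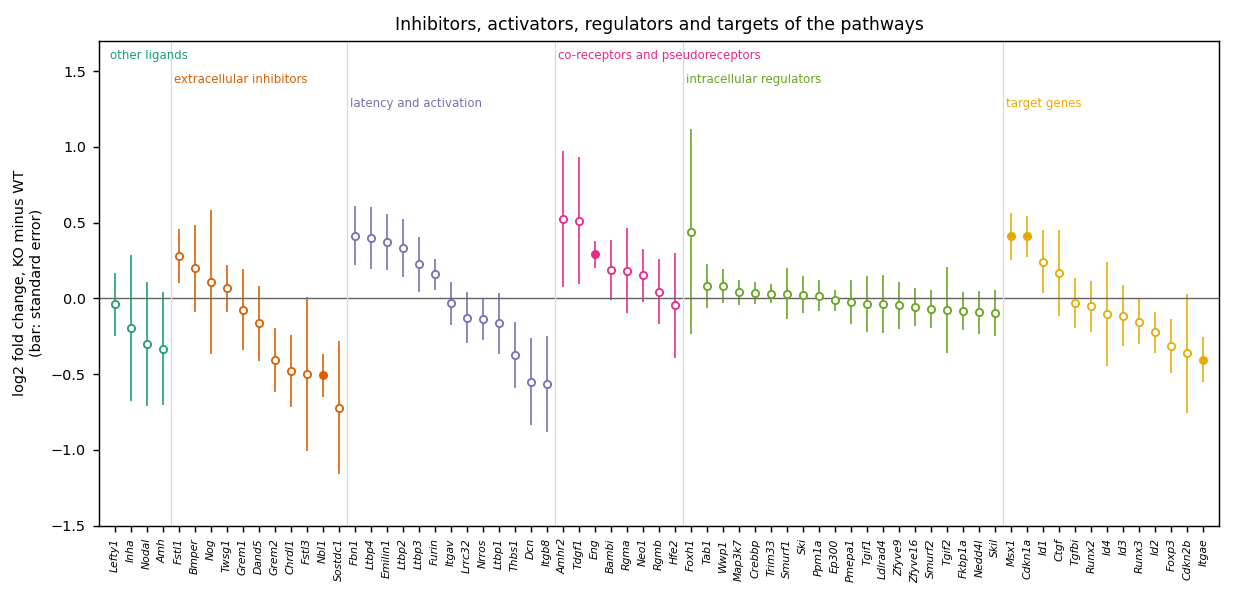
Log2 fold change of DUSP6 KO over WT with its standard error for the 69 tested inhibitors, activators, regulators and targets, ordered within each list; filled points have an unadjusted p under 0.05. Eng, Msx1 and Cdkn1a are the filled points above zero, Nbl1 and Itgae those below, and the intracellular regulators other than Foxh1 lie close to zero.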

How the data were processed

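Poly-A RNA of 10 spleens was sequenced as read pairs. Per the labels and the study's methods, the authors aligned reads with Hisat2, counted them with featureCounts (version 1.5.0-p3) and deposited FPKM per gene. The labels name a human build, but gene identifiers and coordinates are those of mouse: 98.3% of all genes have the coordinates of GENCODE M21 (GRCm38). FPKM times gene length gave whole reads, within 0.001, for 100% of values, which gave the depths stated and served a limma voom alternative. Since no raw counts were used, the main test was limma 3.58.1 (R 4.3.3) with trend on log2(FPKM + 0.1) for genes whose FPKM averaged 0.1 or more, adjusted by Benjamini-Hochberg over all genes tested. Fold changes on this scale understate those of low genes. Single genes were also tested by exact permutation. The code was tested on simulated data.

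Every pair of libraries of a group differed beyond counting noise. Exons of 18 of the 52 genes overlap another gene's, 15 of them on the opposite strand. Samples were grouped by the labels, which say knockdown where the study says knockout. Named genes were all those with an unadjusted p under 0.05 or without overlap, the most abundant of each role, and 11 set pathway genes, 1 further gene not being reported here; others are given as examples, chosen after their values were seen. The members and lists were chosen with earlier results of these data known. Alternatives were other pseudocounts, minima, scalings and limma settings, voom, and leaving out libraries. Pathway symbols found under no name in the table were left out.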

Additional observations from a re-analysis of the deposited data

Results flagged for a closer look

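Single spleens were checked against the other 4 of their group by Dixon's gap test, for 29 named genes and 10 marker sums in each genotype, 78 groups in all. Chance alone marks about 5% of groups, and 5 were marked. Tgfbr1 was highest in KO 21, at 12.1 FPKM, where the other KO spleens reached 9.5 FPKM at most. Eng was highest among WT spleens in WT 67, at 40.3 FPKM. Itgae was lowest among KO spleens in KO 26, at 1.66 FPKM. The neutrophil marker sum was highest among KO spleens in KO 73, at 826 FPKM, and the exocrine pancreas marker sum was highest among WT spleens in WT 67, at 12642 FPKM. KO 21 and WT 67 are the libraries named in the report for their many extreme values and their pancreas transcripts.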

How the results depend on the processing

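Over 22 alternatives, 584 of 615 values of 28 named genes kept direction and side of the adjusted threshold and 31 changed sign. No TGF-beta or BMP gene of the 41 and no other pathway gene passed an adjusted p of 0.05 under any of them, voom included, and the lowest adjusted p of a named gene was 0.0778 (Gdf6 without KO 26). An unadjusted p under 0.05 held in 22 alternatives for Bmp1, in 21 for Gdf6 and Bmp2, and in 15 for Bmp6. The TGF-beta and BMP genes lower at an unadjusted p under 0.05 numbered 1 (Inhba) instead of 0 with a pseudocount of 0.01, without trend, with array weights, with voom and without WT 65 and WT 67, the last chosen after seeing the data, where 2 genes were higher. The other pathway genes that were lower numbered 4 without trend, with array weights and with voom, and those higher numbered 6 with array weights. Leaving out 1 library at a time, 3 to 7 of the 41 genes were higher (7 without KO 73) and 0 to 1 lower (1 without KO 73, WT 65 or WT 67), and 2 to 7 other pathway genes were higher (7 without KO 26, 6 without KO 73, 5 without WT 77) and 1 to 4 lower (1 without WT 73, 4 without WT 65). The median log2 fold change of the 41 TGF-beta and BMP genes ran from 0.01 to 0.10. The share of all genes under the threshold was not counted for these alternatives. The cause of these shifts was not tested.

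Signs changed for genes with log2 fold changes near zero. With array weights Nog was at -0.0317, with median centring Smad4 was at 0.00889 and Tgfbr2 at 0.00532, and with FPKM rescaled after dropping hemoglobin, antigen receptor and mitochondrial genes Smad4 was at 0.00144. Without WT 65 and WT 67, Smad4 was at 9.0e-05, Tgfbr2 at 0.0342 and Id3 at 0.12. Leaving out 1 library gave ranges of -0.0299 to 0.0895 for Tgfb1, -0.11 to 0.0868 for Smad4, -0.0847 to 0.24 for Smad7, -0.0722 to 0.0521 for Tgfbr2, -0.36 to 0.20 for Id4, -0.0808 to 0.15 for Smurf1, -0.12 to 0.022 for Smurf2 and -0.18 to 0.52 for Nog. With a minimum of 1 FPKM, Nog had no value. No paired analysis was made because the sample labels give no pairs. The number 73 occurs in both groups but names mice of different genotype. The 11 genes under the minimum had at most 15 reads in any library and were not tested.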

Other observations

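Fstl3, a secreted binder of activins and GDF11, was chosen after its values were seen. It stood at 0.855, 0.757, 0.698, 0.0944 and 0.0740 FPKM in DUSP6 KO mice 26, 21, 73, 01 and 03, while the WT spleens lay between 0.522 and 0.664 FPKM. Hence 3 KO spleens were above all WT spleens and the other two were far below them, with 3 reads at the least in a KO library against 22 at the least in a WT library. The mean difference was not significant (log2 fold change -0.50, limma adjusted p = 0.982). Fstl3 lies 19.5 Mb from Dusp6 on chromosome 10.

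Foxh1, a partner of Smads in Nodal and activin signaling, varied more between mice than between genotypes. It ran from 0.0754 to 1.75 FPKM in KO and from 0.0767 to 1.54 FPKM in WT spleens. The highest values were in KO 73 and WT 65, and the lowest in KO 21 and WT 67.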
